A study of Homo sapiens with 36 samples.

Results

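The RNA of 2 BRAF-mutant human melanoma cell lines, 1205Lu and WM793, was compared in cells that had received neither drug nor inducer. The comparison rests on 6 of the 36 libraries of the series: 3 replicates of 1205LuTR-NR2F1 and 3 of WM793TR-NR2F1, all given DMSO alone for 72 h, the solvent in which the drugs of the other arms were dissolved. The libraries were picked by their labels for line and treatment. Both lines carry mutant BRAF, a tetracycline repressor and a transgene for NR2F1 under the control of doxycycline (DOX), and no DOX was given to these 6 cultures. The transgene is read as part of NR2F1, so that a level of NR2F1 sums the cell's own gene and any leak from the transgene. The same contrast between the lines was then read in the other 3 arms of the series, DMSO + DOX, BRAFi + MEKi and BRAFi + MEKi + DOX, which hold 18 libraries of the lines. There BRAFi was 1 µM PLX4720, MEKi was 35 nM PD0325901 and DOX was 100 ng/mL. In every arm the 72 h of treatment followed 24 h of culture, with DOX already present during those 24 h in the DOX arms. Each line has its own culture history, but by the origin given below the lines do not stand for 2 separate tumors. The replicates are cultures of a line, so the tests compare these 2 cell lines and not classes of melanoma.

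As background, WM793 was derived from a primary melanoma in its vertical growth phase, and 1205Lu was selected from a lung metastasis that WM793 cells formed in an immunodeficient mouse. The sources used here do not say how far the stocks have since diverged, and kinship between the lines was not tested. Melanoma cells move between states that are read from RNA. In differentiated cells the transcription factors MITF and SOX10 drive genes of the pigment organelle. Neural crest-like cells carry receptors and transcription factors of the embryonic cells from which melanocytes arise, and undifferentiated or invasive cells carry AXL, matrix proteins and inflammatory ligands. NR2F1, an orphan nuclear receptor of the neural crest, has been linked to dormancy of tumor cells.

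The lines differed widely. Of 20788 genes with a mean value of at least 1 in either line, 3428 were higher and 2919 were lower in 1205Lu at an adjusted p under 0.05 (limma's moderated test on log2(value + 1), Benjamini-Hochberg adjustment), 16.5% and 14.0% of those tested and 30.5% together. The difference was at least 1 on the log2 scale for 2303 of the higher and 1695 of the lower genes, and at least 5 for 316 and 297. The median log2 difference of all genes tested was 0.04, where a positive value means higher in 1205Lu throughout. Correlations between libraries were 0.959 to 0.981 within a line and 0.883 to 0.908 between lines. The values are normalized expression, not counts, and they give relative depth at best, through the commonest low value of a library, which approximates what 1 read is worth. WM793 replicate 1 stood apart as the shallowest by this measure: its commonest low value was 5.1 against 0.63 to 1.45 in the other 5 libraries, and 16636 genes were above 0 in it against 18887 to 20293. Its 0s are therefore less informative, and without it 3106 genes were called higher and 2708 lower.

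**Figure D1:**
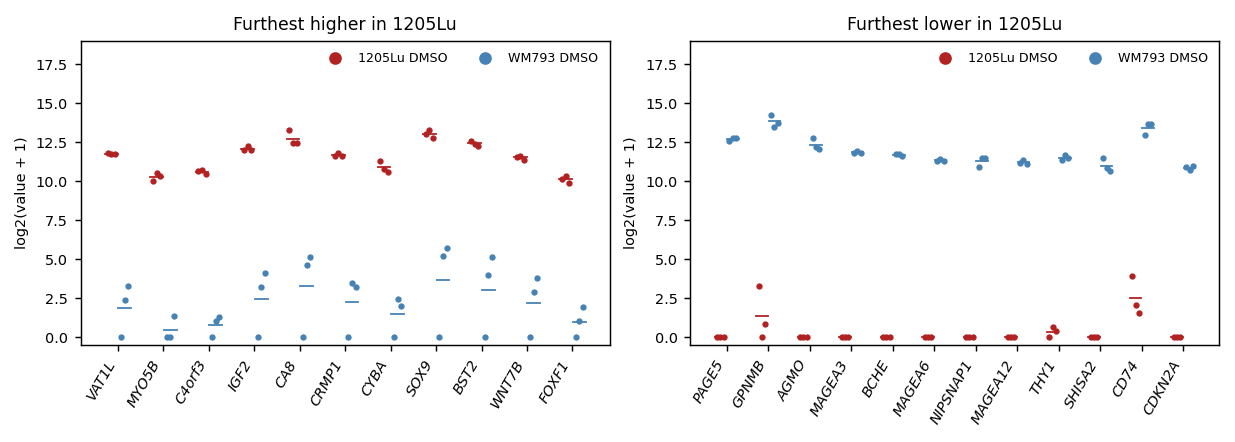
Value of each library on log2(value + 1) for 11 of the 12 protein-coding genes furthest higher and the 12 furthest lower in 1205Lu by the naming rule with every library in, with a bar at the mean of 3 libraries per line. The rule required that no 1205Lu library overlap a WM793 library. WM793 replicate 1, the left of each 3 blue points, lies at 0 for every gene of the left panel.

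The 12 protein-coding genes ranked furthest higher in 1205Lu were each listed at 0 in WM793 replicate 1, and the ranking rests on that library. Ranked by the same rule without it, 6 of the 12 kept their place, and SOX9, IGF2, WNT7B, BST2, CRMP1 and CA8 did not. SOX9, a transcription factor of neural crest and cartilage, read 8255, 10001 and 7013 in 1205Lu and 0, 35.8 and 52 in WM793. IGF2, an imprinted fetal growth factor, read 4099, 4957 and 4052 in 1205Lu and 0, 8.5 and 16.3 in WM793. As the ranking required, the libraries of the lines do not overlap for these genes. The log2 differences were 9.38 ± 1.25 and 9.63 ± 0.87 with an adjusted p of 0.000602 and 6.81e-05. Since WM793 replicate 1 is 0 for each, these differences lean on the pseudocount, and without that library they were 7.56 and 8.41. WNT7B, a WNT ligand, read 3010, 3195 and 2646 in 1205Lu and 0, 6.42 and 12.8 in WM793. BST2, an interferon-induced membrane protein that tethers budding viruses, read 6213, 5350 and 4963 in 1205Lu and 0, 14.8 and 34.5 in WM793. FOXF1, a forkhead factor of mesenchyme, read 1125, 1312 and 948 in 1205Lu and 0, 1.05 and 2.89 in WM793, and FENDRR, a long noncoding RNA encoded next to it that was picked here after its values were seen, was listed at 0 in the 3 WM793 libraries and read 956, 1210 and 1237 in 1205Lu. CYBA, the p22phox subunit of NADPH oxidase, MYO5B, a motor of recycling endosomes, CRMP1, a mediator of semaphorin signals, CA8, VAT1L and C4orf3 were the others of the 11 shown.

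Of the 12 genes ranked furthest lower, 10 kept their place without WM793 replicate 1, and CDKN2A and SHISA2 did not. In 9 of the 12 the gene was listed at 0 in every 1205Lu library, so no fold is given for those 9. PAGE5, MAGEA3, MAGEA6 and MAGEA12 belong to the cancer-testis antigens, normally made by germ cells. PAGE5 read 5985, 7041 and 6835 in WM793 and MAGEA3 read 3590, 3923 and 3529. CDKN2A, which encodes the cell cycle inhibitors p16INK4A and p14ARF, read 1947, 1652 and 1996 in WM793, and AGMO, an enzyme that cleaves ether lipids, read 6941, 4665 and 4200. BCHE, a cholinesterase, NIPSNAP1, a mitochondrial protein, and SHISA2, which restrains FGF and WNT receptors, were the others. Those 9 genes were called, with adjusted p values of 2.29e-07 to 4.98e-07. The remaining 3 were GPNMB, a glycoprotein of melanosomes and lysosomes, THY1, a surface glycoprotein of fibroblasts and neurons, and CD74, the MHC class II invariant chain. GPNMB read 8.63, 0 and 0.815 in 1205Lu and 19796, 11255 and 13854 in WM793. THY1 read 0, 0.547 and 0.295 in 1205Lu and 2667, 3222 and 2843 in WM793, so that its RNA was at the limit of detection in 1205Lu.

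NR2F1, the gene the lines were engineered to induce, was higher in 1205Lu before induction. It read 6273, 2182 and 2327 in 1205Lu and 917, 321 and 1511 in WM793, with no overlap between the lines, a log2 difference of 2.05 ± 0.57 and an adjusted p of 0.0237. The spread within each line was wide, and the call held in 1 of the 6 fits that left out a library, the one without WM793 replicate 3, with adjusted p values from 0.0141 to 0.111 and log2 differences from 1.43 to 2.54 over the 6. With DOX the order turned, to a mean of 13041 in 1205Lu and 64937 in WM793 (log2 difference -2.41). NR2F2, the closest relative, read 1707, 1469 and 1082 in 1205Lu and 1399, 968 and 924 in WM793. NR2F6, the third member of the family, read 537, 586 and 289 in 1205Lu and 556, 474 and 645 in WM793, and the antisense NR2F1-AS1, which does not share the transgene, read 731, 806 and 560.0 in 1205Lu and 869, 477 and 439 in WM793. For these genes the lines overlapped and the log2 differences were 0.37 ± 0.22, -0.30 ± 0.28 and 0.29 ± 0.28, none called. Whether the counting used strand is not given in the sources used here, and without it reads of NR2F1 and NR2F1-AS1 cannot be told apart where they overlap.

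Among the other orphan and retinoid nuclear receptors and the enzymes and carriers around them, 8 of 42 tested were higher and 10 lower, against 16.5% and 14.0% of all genes. RARB, a retinoic acid receptor that is itself induced by retinoic acid, read 1063, 1378 and 1423 in 1205Lu and 83.1, 62.2 and 68.1 in WM793, and its adjusted p was 3.62e-06. CYP26B1, which degrades retinoic acid, was also higher (log2 difference 2.30 ± 0.19), as was RXRA (log2 difference 1.39 ± 0.17), a partner that many of these receptors bind. RXRG, a retinoid X receptor of neural crest-like melanoma cells, went the other way at 13.8, 32.6 and 15.2 in 1205Lu and 1515, 1885 and 1102 in WM793. RORA was higher in 1205Lu and NR4A2 lower, at log2 differences of 6.17 ± 0.63 and -2.42 ± 0.49. The count of higher members fell to 5 without 1205Lu replicate 3, without WM793 replicate 1 or without WM793 replicate 2.

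Genes of melanocyte differentiation were more often lower than higher in 1205Lu. Of 28 listed, 20 could be tested, 3 were higher and 8 lower (median log2 difference -0.23, all genes 0.04). That was 15% and 40%, against 16.5% and 14.0% of all genes, so the higher share was near that of all genes. MITF read 155, 68.3 and 119 in 1205Lu and 769, 526 and 345 in WM793, and its log2 difference was -2.25 ± 0.38 (adjusted p = 0.00212). SOX10 was abundant in both lines and lower in 1205Lu by a smaller amount, at 9510, 10572 and 7464 in 1205Lu and 13495, 14819 and 15326 in WM793 (log2 difference -0.68 ± 0.16, adjusted p = 0.0106). EDNRB, the endothelin receptor of melanoblasts, read 382, 261 and 284 in 1205Lu and 3648, 5485 and 5223 in WM793, and IRF4, a regulator of tyrosinase in pigment cells, read 14.3, 3.11 and 1.00 in 1205Lu and 1401, 1103 and 1198 in WM793. APOE, an apolipoprotein, read 26, 7.96 and 5.33 in 1205Lu and 5573, 3667 and 4171 in WM793. GPR143, a melanosomal receptor, was listed at 0 in 1205Lu and read 144, 81.6 and 80.2 in WM793. MC1R, the receptor for melanocyte-stimulating hormone, was higher in 1205Lu at 1393, 1179 and 1252 in 1205Lu and 356, 471 and 434 in WM793 (log2 difference 1.61 ± 0.17). MLPH, which links melanosomes to the myosin motor, was called higher (log2 difference 1.53 ± 0.34, adjusted p = 0.00929), but not without 1205Lu replicate 2 (adjusted p = 0.0557) or without 1205Lu replicate 3 (adjusted p = 0.0607). Of the markers that define a melanocytic cell, SOX10 and S100B were abundant in every library of both lines, whereas TYR and MLANA did not reach a mean of 1 in either. PMEL, the fibril protein of the melanosome, read 19, 20.8 and 10.7 in 1205Lu and 13.6, 18 and 15.7 in WM793 and was not called.

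**Figure D2:**
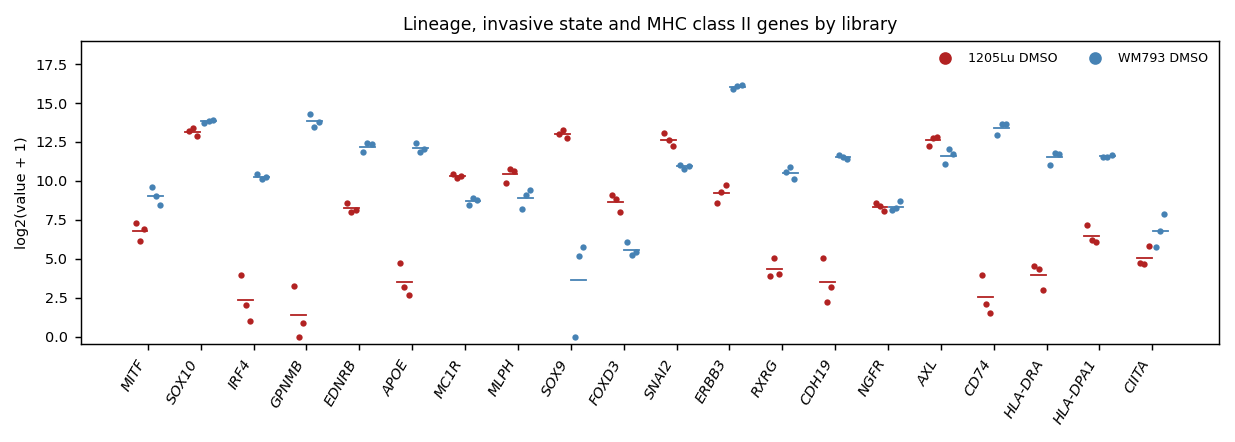
Value of each library on log2(value + 1) for genes of the melanocyte lineage, the neural crest, the invasive state and MHC class II, with a bar at the mean of the 3 libraries of each line. SOX9, FOXD3, SNAI2 and AXL sit higher in 1205Lu, whereas MITF, GPNMB, ERBB3, RXRG and CD74 sit higher in WM793, and NGFR is level.

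Of the 24 neural crest genes, 8 were higher and 8 lower (median log2 difference 0.02). That was 33.3% each way, against 16.5% and 14.0% of all genes. Higher in 1205Lu were SOX9, FOXD3 and SNAI2, transcription factors that specify or mobilize crest cells, with log2 differences of 9.38 ± 1.25, 3.08 ± 0.37 and 1.71 ± 0.21. FOXD3 read 553, 465 and 257 in 1205Lu and 66.3, 36.9 and 41.9 in WM793. Among the lower members, ERBB3, the neuregulin receptor, read 389, 626 and 871 in 1205Lu and 60044, 70125 and 74041 in WM793, and its log2 difference was -6.83 ± 0.26 (adjusted p = 6.66e-07). CDH19, a cadherin of Schwann cell precursors, read 32.4, 3.59 and 8.08 in 1205Lu and 3260, 2975 and 2670 in WM793. SOX8, a transcription factor related to SOX10, was lower too with a log2 difference of -2.89 ± 0.31. NGFR, the nerve growth factor receptor often used to define this state, overlapped between lines at 377, 337 and 271 in 1205Lu and 274, 306 and 412 in WM793, and NES and S100B were not called.

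Of 28 tested genes of the undifferentiated, invasive state, 12 were higher and 5 lower in 1205Lu (median log2 difference 0.84). That was 42.9% and 17.9%, against 16.5% and 14.0% of all genes. Without 1 library the higher count ranged from 8 to 14. LOXL2, a collagen crosslinking enzyme, read 55288, 58867 and 61842 in 1205Lu and 8725, 16941 and 17331 in WM793, and F2RL1, a protease-activated receptor, was higher with a log2 difference of 3.71 ± 0.50. AXL, the receptor tyrosine kinase that marks the state, read 4932, 6833 and 7272 in 1205Lu and 2130, 4174 and 3386 in WM793 (log2 difference 1.01 ± 0.25, adjusted p = 0.0155), without overlap but lost at an adjusted p of 0.0719 without 1205Lu replicate 2 and 0.0849 without replicate 3. FGF2 and ANXA1 were lower with log2 differences of -2.06 ± 0.21 and -1.93 ± 0.14. EGFR, another marker of the state, was not called at 2766, 1967 and 2493 in 1205Lu and 2538, 2172 and 2194 in WM793 (log2 difference 0.06 ± 0.16).

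Secreted inflammatory ligands differed in both directions, with 15 of 47 tested cytokines, chemokines and growth factors higher and 14 lower. That was 31.9% and 29.8%, against 16.5% and 14.0% of all genes. IL1B, the interleukin that signals through the IL-1 receptor, was one of the furthest apart: it read 194312, 115159 and 98968 in 1205Lu and 698, 637 and 422 in WM793, with a log2 difference of 7.83 ± 0.27 (adjusted p = 5.14e-07). TGFA, a ligand of EGFR, read 9196, 10404 and 11477 in 1205Lu and 184, 179 and 126 in WM793. IL32 and CCL20 were also higher with log2 differences of 4.97 ± 0.68 and 3.01 ± 0.54. WM793 was higher in AREG, another EGFR ligand, at 0, 1.19 and 0 in 1205Lu and 52.6, 79.5 and 16.3 in WM793, and in CXCL12, the ligand of CXCR4, at 24.4, 2.32 and 8.8 in 1205Lu and 291, 271 and 403 in WM793. IL24 read 146, 1.62 and 0.878 in 1205Lu and 14190, 1239 and 1034 in WM793, with replicate 1 of each line far above the other libraries of that line. Of 49 interferon-induced genes, 14 were higher (28.6%) and 15 lower (30.6%), against the same shares of all genes, with 9 higher without 1205Lu replicate 1. IFI27 read 4233, 2126 and 1909 in 1205Lu and 6.29, 6.2 and 5.64 in WM793, and OAS1 and OAS2, sensors of double-stranded RNA, were higher with log2 differences of 3.77 ± 0.72 and 3.80 ± 0.80. IFIT2, which restrains translation, was lower at 72.3, 46 and 43.6 in 1205Lu and 631, 485 and 479 in WM793. IFI44 was lower too, at 7.86, 11.9 and 9.64 in 1205Lu and 111, 261 and 292 in WM793.

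MHC class II genes, which present antigen to CD4+ T cells and which some melanomas express, were mostly lower in 1205Lu. Of 15 tested, 11 were lower and 0 higher by limma, also at an unadjusted p under 0.05 (0 higher), against 14.0% and 16.5% of all genes (median log2 difference -3.39). In all 3 1205Lu libraries 3 of the 15 were listed at 0. Those 3 passed the filter on the mean through WM793 alone and could not be called higher. HLA-DRA read 22.2, 19.5 and 7.16 in 1205Lu and 2069, 3532 and 3361 in WM793, and HLA-DPA1 read 145, 72.4 and 65.9 in 1205Lu and 3000, 2969 and 3257 in WM793. Their adjusted p values were 4.44e-06 and 5.03e-06, with no overlap between lines. CD74, which escorts class II molecules, read 14.5, 3.23 and 1.9 in 1205Lu and 7817, 12757 and 12753 in WM793. CIITA, the coactivator that switches these genes on, read 25.5, 24.7 and 54.4 in 1205Lu and 52.4, 109 and 233 in WM793, a smaller difference (log2 difference -1.73 ± 0.57, adjusted p = 0.0484) in which the lines overlapped. That call was lost in 5 of the 6 fits without a library, held without WM793 replicate 1, and was lost with a pseudocount of 0.1, with no filter and after rescaling. HLA-DRB1 and HLA-DRB5 are near-identical, and reads could be split between them. Of 23 genes of MHC class I and antigen processing, 6 were higher (26.1%) and 2 lower (8.7%), against 16.5% and 14.0% of all genes. TAP1, the peptide transporter, was higher with a log2 difference of 0.78 ± 0.15 while B2M was not called (log2 difference 0.04 ± 0.13). The higher class I count fell to 2 without WM793 replicate 2, and the lower count to 1 without 1205Lu replicate 1 or 2 or without WM793 replicate 2 or 3.

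**Figure D3:**
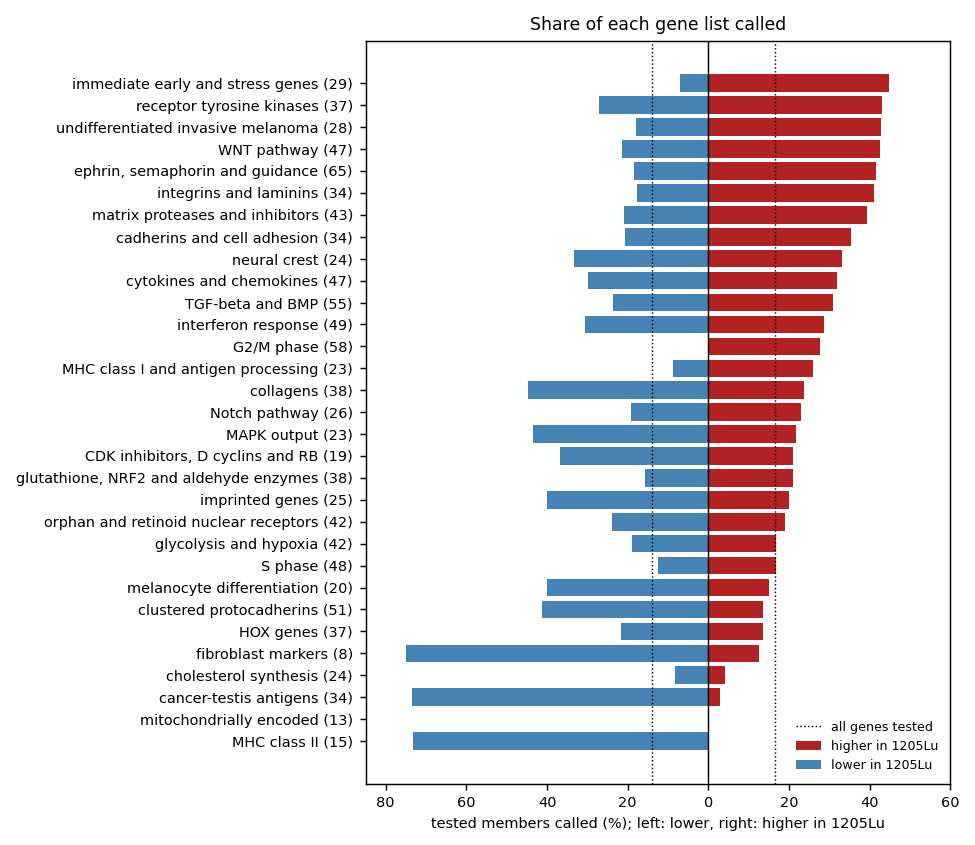
Share of the tested members of each gene list (number tested in brackets) that were called higher (right) or lower (left) in 1205Lu under DMSO, in percent, with dotted lines at the shares of all genes tested, 16.5% and 14.0%. MHC class II genes, fibroblast markers and cancer-testis antigens reach furthest to the left, and no G2/M gene is lower and no mitochondrially encoded gene is called in the fit shown.

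Most of the cancer-testis antigens tested were lower in 1205Lu. Of 69 listed, 34 could be tested. Of these, 25 were lower (73.5%) and 1 was higher (2.94%) in 1205Lu, against 14.0% and 16.5% of all genes. In all 3 1205Lu libraries 25 of the 34 were listed at 0. Those 25 passed the filter on the mean through WM793 alone and could not be called higher, so the filter weighs on these counts. MAGEA10 read 1175, 1448 and 1221 in WM793, and GAGE2A read 1508, 1431 and 1468. MAGEA1 read 1.31, 0.629 and 2.04 in 1205Lu and 40.9, 43.4 and 40.6 in WM793. The MAGEA, GAGE and XAGE families hold near-identical copies between which the authors' counting could divide reads, so that values of single members are uncertain. PRAME, a related antigen of chromosome 22, read 5812, 4810 and 5781 in 1205Lu and 6988, 7242 and 7244 in WM793 (log2 difference -0.39 ± 0.13, adjusted p = 0.0467), a call that was lost in 5 of the 6 fits without a library, all but the one without 1205Lu replicate 1, and also with no filter, after rescaling and with median-of-ratios scaling (adjusted p = 0.0561, 0.0645 and 0.0502). PASD1, on chromosome X, was the member that was higher in 1205Lu, at 2588, 2574 and 2888 in 1205Lu and 15.3, 20.0 and 14.5 in WM793 (log2 difference 7.26 ± 0.23, adjusted p = 3.2e-07). Of those members, 28 of 33 tested were called lower under DMSO + DOX, 28 of 32 under BRAFi + MEKi and 29 of 33 under BRAFi + MEKi + DOX, where 18.4%, 15.1% and 13.1% of all genes were lower. The filter weighs on these counts in the same way, since members at 0 in 1205Lu could not be called higher in any arm. MAGEA3, MAGEA6, MAGEA10 and MAGEA12, for example, were at 0 in all 12 1205Lu libraries.

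Genes listed at 0 in 1 line and high in the other were counted across the genome. At a mean of at least 100 in the other line, 105 genes were at 0 in all 3 1205Lu DMSO libraries, 22 of them on chromosome X, and 40 were at 0 in all 3 WM793 libraries, 2 of them on chromosome X. Of all genes tested with a position, 716 of 20708 lay on chromosome X. Among the 40, a chromosome 19 gene without a symbol read 0, 420 and 0 in 1205Lu and was not called. Of the 105, 57 were at 0 in all 12 libraries of 1205Lu, and of the 40, 7 were at 0 in all 12 of WM793. Of the 105, NIPSNAP1 read 1958, 2836 and 2926 in WM793, and at most 4.71 in any of 12 1205Lu libraries. C4orf3, a small membrane peptide of the endoplasmic reticulum, was near 0 in WM793 instead, at 1591, 1657 and 1405 in 1205Lu and 0, 1.07 and 1.47 in WM793. On chromosome 9, CDKN2A and its neighbour CDKN2B, another CDK inhibitor, were listed at 0 in 1205Lu while CDKN2B read 1875, 853 and 699.6 in WM793. MTAP, a gene of methionine salvage next to CDKN2A, was read in both lines at 7136, 4489 and 5753 in 1205Lu and 4560, 4431 and 4128 in WM793, and of the alternatives run it was called only without 1205Lu replicate 2 (adjusted p = 0.0295) and with array weights (adjusted p = 0.0457). An exact 0 in such a table can also come from the estimation of counts for each gene, and no DNA was measured here.

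The promoters of 4 of these genes are shown because they fall in the pigment and cancer-testis groups described above, as the bases just before the annotated start site in RefSeq (GRCh38.p14), read 5′ to 3′ on the gene's strand. Capitals mark CATGTG or its reverse complement CACATG, the core of the M-box that MITF binds, and TGACTCA or TGAGTCA, the site of AP-1 (FOS and JUN proteins). GPNMB lies at chr7:23246625-23246774 on the + strand, GPR143 at chrX:9765848-9765947 on the - strand, MAGEA3 at chrX:152698644-152698793 on the + strand and MAGEA6 at chrX:152769690-152769839 on the - strand.
GPNMB: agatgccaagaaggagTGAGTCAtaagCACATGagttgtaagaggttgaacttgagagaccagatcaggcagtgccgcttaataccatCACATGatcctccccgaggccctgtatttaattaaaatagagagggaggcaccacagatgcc
GPR143: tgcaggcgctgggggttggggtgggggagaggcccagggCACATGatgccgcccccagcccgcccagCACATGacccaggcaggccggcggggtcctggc
MAGEA3: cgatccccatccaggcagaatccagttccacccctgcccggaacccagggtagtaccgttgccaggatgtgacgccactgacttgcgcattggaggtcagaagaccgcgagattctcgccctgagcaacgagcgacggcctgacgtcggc
MAGEA6: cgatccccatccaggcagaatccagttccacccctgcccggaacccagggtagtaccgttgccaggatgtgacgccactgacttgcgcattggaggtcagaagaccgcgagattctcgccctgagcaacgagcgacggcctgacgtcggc
In GPNMB the M-box core occurs 2 times, beginning 123 and 62 bases before the gene's start, and an AP-1 site begins 134 bases before it. In GPR143 the core occurs 2 times, 61 and 33 bases before the start. MAGEA3 and MAGEA6 hold neither, and their 150 bases shown are identical (0 differences), as are the 250 bases before the start.

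Both motifs were then counted in all promoters. A sequence of 300 bases, 250 before and 50 after the start, was found for 11862 of the 14981 protein-coding genes tested outside chromosome Y. The M-box core, on either strand, occurred in 8.17% of 2094 promoters of genes lower in 1205Lu, 6.23% of 2151 of genes higher and 6.94% of all. The AP-1 site occurred in 3.34% of promoters of genes lower, 3.58% of genes higher and 3.14% of all. A match is a run of letters and does not show that a factor was bound.

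Of 38 tested collagens, 9 were higher and 17 lower in 1205Lu (median log2 difference -0.78). That was 23.7% and 44.7%, against 16.5% and 14.0% of all genes. COL3A1, a fibrillar collagen of connective tissue, read 0, 1.71 and 0 in 1205Lu and 1838, 2701 and 2930 in WM793, and COL4A5, a basement membrane collagen, was listed at 0 in 1205Lu and read 1626, 1435 and 1186 in WM793. COL16A1 and COL6A3 were higher in 1205Lu, by 3.27 ± 0.26 and 5.91 ± 0.66. Of 34 integrins and laminins, 14 were higher (41.2%) and 6 lower (17.6%). ITGA2 and ITGA3, which receive collagen and laminin, were higher with log2 differences of 3.43 ± 0.44 and 2.56 ± 0.34, and ITGA1 and ITGA11, collagen receptors too, were lower with log2 differences of -3.33 ± 0.29 and -2.68 ± 0.34.

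Among matrix proteases and their inhibitors, 17 of 43 were higher and 9 lower (39.5% and 20.9%, against 16.5% and 14.0% of all genes). PLAT, the tissue plasminogen activator, read 48389, 49292 and 57750 in 1205Lu and 4932, 5272 and 5074 in WM793 (adjusted p = 7.26e-07). TIMP4, an inhibitor of metalloproteinases, was higher at 549, 888 and 746 in 1205Lu and 0, 5.31 and 5.79 in WM793. MMP1, interstitial collagenase, was lower at 234, 86.1 and 80.5 in 1205Lu and 14984, 28254 and 12579 in WM793, and MMP2, a gelatinase, was lower with a log2 difference of -2.40 ± 0.16. Of 34 cadherins and other adhesion genes tested, 12 were higher (35.3%) and 7 lower (20.6%). CDH2, N-cadherin, read 686, 723 and 851 in 1205Lu and 8011, 7136 and 5940 in WM793, whereas CDH6, a cadherin of kidney and crest cells, read 236, 346 and 427 in 1205Lu and 1.92, 5.57 and 0.544 in WM793. CD44, the hyaluronan receptor, read 45003, 43353 and 57797 in 1205Lu and 5742, 10248 and 13716 in WM793. CHL1 and CNTN4, adhesion proteins of neurons, were listed at 0 in 1205Lu. In WM793 CHL1 read 174, 194 and 278, and CNTN4 read 1318, 1127 and 1141.

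Of 51 clustered protocadherins of chromosome 5, of which each neuron chooses a few to express, 21 were lower, 7 higher and 23 not called (median log2 difference -1.44). That was 41.2% lower and 13.7% higher, against 14.0% and 16.5% of all genes. PCDHGA11 read 3.38, 12.1 and 14.7 in 1205Lu and 1104, 1168 and 1010 in WM793, and PCDHB6 read 0, 0.619 and 0 in 1205Lu and 261, 257 and 283 in WM793. PCDHAC2 and PCDHA11 were higher, each listed at 0 in WM793. Members of the alpha and gamma clusters share their last exons, which limits how reads can be assigned to 1 of them. The count of higher members fell to 4 without 1205Lu replicate 1 or without 1205Lu replicate 3.

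Receptors and guidance cues were more often higher than lower in 1205Lu. Of 37 receptor tyrosine kinases tested, 16 were higher and 10 lower. That was 43.2% and 27%, both above the 16.5% and 14.0% of all genes. INSR, the insulin receptor, read 258, 391 and 294 in 1205Lu and 0, 1.32 and 2.72 in WM793, and NTRK2, the receptor of brain-derived neurotrophic factor, was higher with a log2 difference of 3.64 ± 0.43. FLT1, a VEGF receptor, and ROR2, a WNT5A receptor, were lower with log2 differences of -1.60 ± 0.14 and -4.60 ± 0.30. Of 65 ephrin, semaphorin, netrin and slit genes, 27 were higher (41.5%) and 12 lower (18.5%). NTN1, the netrin that steers axons, read 3342, 2632 and 2662 in 1205Lu and 87.1, 89.9 and 88.3 in WM793, and its receptors UNC5A, UNC5B and NEO1 were higher as well with log2 differences of 6.80 ± 0.54, 6.77 ± 0.62 and 6.55 ± 0.46. SLIT1 read 0, 0.629 and 2.96 in 1205Lu and 2317, 1770 and 2047 in WM793, and SEMA3A was lower with a log2 difference of -4.90 ± 0.46. Of 47 WNT pathway genes, 20 were higher (42.6%) and 10 lower (21.3%). WNT7B was among the higher, and DKK3, a secreted protein of the WNT inhibitor family, read 46260, 46574 and 39154 in 1205Lu and 4680, 5269 and 6817 in WM793.

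Output genes of the MAPK pathway, the pathway that mutant BRAF drives, were lower in 10 and higher in 5 of 23 cases (median log2 difference -0.40). That was 43.5% and 21.7%, against 14.0% and 16.5% of all genes. DUSP4, a phosphatase that restrains ERK, read 3750, 3429 and 3097 in 1205Lu and 21949, 17137 and 17738 in WM793 (adjusted p = 6.45e-06). SPRY1 and SPRY4, feedback inhibitors of receptor signals, were lower with log2 differences of -3.49 ± 0.33 and -1.48 ± 0.14. ETV1, an ETS factor, was lower with a log2 difference of -2.38 ± 0.19 and CCND1, cyclin D1, with -1.55 ± 0.24. DUSP5, an ERK phosphatase of the nucleus, was higher with a log2 difference of 2.47 ± 0.22, as was EPHA2 with 1.23 ± 0.17. DUSP6, a core feedback phosphatase of the pathway, read 4013, 2661 and 2968 in 1205Lu and 4070, 5183 and 3470 in WM793 and was not called (adjusted p = 0.169), though it was called lower with array weights (log2 difference -0.60, adjusted p = 0.0247). BRAF itself was not called either (log2 difference -0.32 ± 0.17).

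Of 58 G2/M genes, 16 were higher (27.6%) and 0 lower by limma, against 16.5% and 14.0% of all genes (median log2 difference 0.28). At an unadjusted p under 0.05, 2 were lower, and with array weights 1 was. Without 1 library the higher count ran from 8 to 21, with 10 without 1205Lu replicate 2 or replicate 3 and 8 without WM793 replicate 2. BIRC5, survivin, read 2975, 3942 and 3940 in 1205Lu and 1096, 1166 and 1181 in WM793, and FOXM1, a transcription factor of mitotic genes, read 7228, 8369 and 7670 in 1205Lu and 3095, 2610 and 2736 in WM793. KIF23 and CDCA3 were higher with log2 differences of 1.12 ± 0.12 and 1.24 ± 0.16. Of 48 S phase genes, 8 were higher and 6 lower, near the shares of all genes. Those counts were unstable: the higher count ran from 1 to 7 and the lower from 1 to 5 with 1 library left out, with the lowest higher count without 1205Lu replicate 3 and the lowest lower count without WM793 replicate 2. Of the CDK inhibitors and their partners, CDKN1A, the p21 inhibitor, read 8271, 5424 and 4445 in 1205Lu and 2368, 2166 and 2093 in WM793, and CDKN2D was higher with a log2 difference of 1.72 ± 0.21, in contrast to CDKN2A and CDKN2B. CDK6 was lower with a log2 difference of -1.24 ± 0.17.

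Stress genes were higher in 1205Lu more often than lower, 13 of 29 (44.8%) against 2 (6.9%), where 16.5% and 14.0% of all genes were. The lower count was 0 without 1205Lu replicate 3, 1 without 1205Lu replicate 2 or without WM793 replicate 1 or 3, and 4 without 1205Lu replicate 1. JUN, an AP-1 subunit, read 4256, 2759 and 2129 in 1205Lu and 122, 226 and 285 in WM793, and ATF3 and EGR2 were higher with log2 differences of 1.79 ± 0.28 and 2.85 ± 0.29. ASNS, asparagine synthetase, read 5039, 11733 and 9504 in 1205Lu and 1244, 2115 and 1739 in WM793. CHAC1, a glutathione-degrading enzyme and like ASNS a target of ATF4, read 374, 408 and 399 in 1205Lu and 17.8, 43.4 and 25.6 in WM793. FOS was not called (log2 difference 0.44 ± 0.35). In glycolysis and hypoxia, 7 of 42 were higher and 8 lower (16.7% and 19%, near the 16.5% and 14.0% of all genes), and 27 were not called. CA12, a carbonic anhydrase, read 2305, 2238 and 2671 in 1205Lu and 65.8, 47.2 and 29.4 in WM793, and HK2, hexokinase 2, was lower with a log2 difference of -2.71 ± 0.18. Among glutathione, NRF2 and aldehyde enzymes, NQO1, a quinone reductase induced by NRF2, read 11312, 16624 and 14617 in 1205Lu and 50944, 70624 and 73778 in WM793, and AKR1C3, an aldo-keto reductase, read 1.66, 0 and 5.24 in 1205Lu and 384, 392 and 379.6 in WM793. Of the 38 tested, 8 were higher and 6 lower (21.1% and 15.8%, near the shares of all genes), with 5 higher without 1205Lu replicate 2.

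Of 24 cholesterol synthesis genes, 1 was higher (4.17%) and 2 lower (8.33%), under the 16.5% and 14.0% of all genes. None of the 13 mitochondrially encoded genes was called at an adjusted p under 0.05 by limma. At an unadjusted p under 0.05, 0 were higher and 3 lower, and without WM793 replicate 2 1 was called lower. Of 37 HOX genes tested, 5 were higher (13.5%, below the 16.5% of all genes) and 8 lower (21.6%, against 14.0%), with a log2 difference of -1.65 ± 0.21 for HOXA11 and -1.27 ± 0.18 for HOXD13, and 24 were not called. The higher HOX count was 2 to 4 with any 1 library left out, and 2 without 1205Lu replicate 2 or WM793 replicate 1. Of 25 imprinted genes, 10 were lower (40%, against 14.0% of all genes) and 5 higher (20%, against 16.5%). The lower count was 6 without WM793 replicate 2. IGF2 and its neighbour H19, an imprinted noncoding RNA, were both higher, H19 at 1813, 7315 and 4391 in 1205Lu and 161, 119 and 138 in WM793. MKRN3, another imprinted gene, was listed at 0 in 1205Lu and read 227, 344 and 204 in WM793. Of the 55 TGF-beta and BMP genes 17 were higher (30.9%) and 13 lower (23.6%), with 11 higher without 1205Lu replicate 3. Of the 26 Notch genes 6 were higher (23.1%) and 5 lower (19.2%), near the 16.5% and 14.0% of all genes. The lower Notch count was 2 without 1205Lu replicate 1 or without WM793 replicate 2 or 3, and 3 without 1205Lu replicate 3. JAG1 and JAG2 were higher with log2 differences of 2.40 ± 0.30 and 4.60 ± 0.48.

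Markers of other cell types were read in the same libraries. Of 8 fibroblast markers, 6 were lower (75%) and 1 higher (12.5%) in 1205Lu, against 14.0% and 16.5% of all genes. The sum over the fibroblast list ran from 5720 to 7944 in 1205Lu and from 9593 to 12082 in WM793. LUM and DCN, proteoglycans of connective tissue, were listed at 0 in 1205Lu. They passed the filter on the mean through WM793 alone and could not be called higher. In WM793 LUM read 292, 238 and 212, and DCN read 76.8, 101 and 173. PDGFRA, the higher member, read 4223, 5538 and 7295 in 1205Lu and 2260, 3553 and 4011 in WM793, and its call was lost with a pseudocount of 0.1 and in 4 of the 6 fits without a library, holding without 1205Lu replicate 1 and without WM793 replicate 3. The labels name cells of 1 melanoma line for each library and no other cell type. Whether other cells contributed to these values was not tested, and in bulk RNA fewer cells of a type and less RNA per cell cannot be told apart. Of 10 immune markers, 6 did not reach a mean of 1, among them CD3E and CD14, and CD68, a lysosomal protein, was higher with a log2 difference of 2.35 ± 0.19. CD68 was the 1 member called of the 4 tested (25% higher, against 16.5% of all genes). Of 8 endothelial markers 7 were tested, 1 higher and 1 lower, KDR (14.3% each way, near the shares of all genes). The sum over the endothelial list ran from 40 to 52.4 in 1205Lu and from 136 to 272 in WM793. Of 8 keratinocyte markers 4 were tested and 1, TP63, was lower (2 without WM793 replicate 1). That was 25% lower and 0% higher, against 14.0% and 16.5% of all genes. Of the 4 tested, 2 were at 0 in all 3 1205Lu libraries and 1 in all 3 WM793 libraries.

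The differences were not spread evenly over the chromosomes. On chromosome 8, 36% of 750 genes were higher and 6.13% lower, with a median log2 difference of 0.70, and on chromosome 7, 8.66% of 1062 genes were higher and 28.9% lower, with a median of -0.38. The medians of the other autosomes and of chromosome X lay between -0.17 (chromosome 4) and 0.21 (chromosome 11). When the protein-coding genes with a mean of at least 10 were cut into runs of 25 neighbours, all 12 runs of chromosome 8 to the right of chr8:37762595-42051994 had a median of at least 0.50, up to 1.09 in the run from RSPO2 to DEPTOR (chr8:107899316-120050918, GRCh38). The other 6 runs ranged from -0.36 to 0.37. All 25 runs of chromosome 7 had a median below 0, from -0.92 to -0.06. These chromosome medians under DMSO + DOX, BRAFi + MEKi and BRAFi + MEKi + DOX were 0.63, 0.64 and 0.55 for chromosome 8 and -0.40, -0.34 and -0.38 for chromosome 7.

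**Figure D4:**
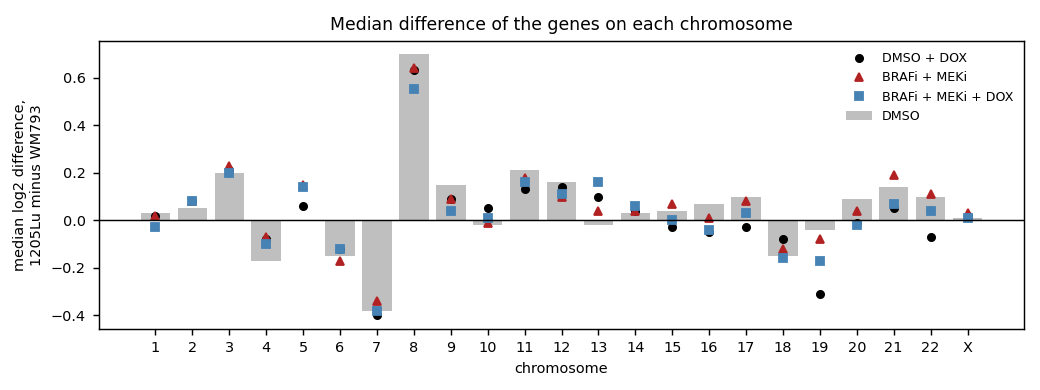
Median log2 difference between 1205Lu and WM793 of the genes tested on each chromosome, as bars for DMSO and as points for the other 3 arms. Chromosome 8 (0.70 under DMSO) and chromosome 7 (-0.38) stand furthest from 0, and their points in the other arms lie near the bars.

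Among smaller regions, the lowest run of all, from PCDHA3 to PCDHGB2 in the protocadherin clusters (chr5:140801028-141512975, GRCh38), had a median log2 difference of -2.16, with 13 genes lower and 4 higher. On chromosome 4, the run at chr4:153152435-163520539 had a median of -1.37, with 13 lower and 2 higher. On chromosome 19, a run of 25 neighbouring genes, most of them zinc finger genes, from ZNF613 to ZNF160 (chr19:51927147-53103434, GRCh38) had a median log2 difference of -1.54, with 17 genes lower in 1205Lu and 0 with a log2 difference above 0. ZNF880, ZNF611 and ZNF320, from this run, were listed at 0 in every 1205Lu DMSO library. ZNF880 read 314, 457 and 413 in WM793, and ZNF611 read 197, 388 and 325 there. The same run had medians of -1.65, -1.39 and -1.45 in the other arms. On chromosome 6, 2 adjoining runs from SMPDL3A to NHSL1 (chr6:122789049-138692571) had medians of -0.98 and -1.0, and on chromosome 5 the runs from TENT4A to CDH6 and from DROSHA to SLC1A3 (chr5:6713432-36688334) both had 0.84. Of 529 runs in all, 43 had a median above 0.5 and 33 below -0.5. DNA copy number was not measured, and its part in these differences was not tested.

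The contrast between the lines was then followed into the other arms, each on its own 6 libraries. With DOX alone, 77.9% of the genes higher under DMSO and 78.1% of those lower were called in the same direction, and 1 and 3 were called in the other, where 37.3% of all genes were called. As shares of the genes called under DMSO + DOX these were 68.3% and 59.8%. Under BRAFi + MEKi the shares were 51.8% and 48.4%, with 158 and 90 genes called in the opposite direction, and under BRAFi + MEKi + DOX they were 42.2% and 43.3%, with 106 and 81. As shares of the genes called in those arms they were 50.6% and 43% under BRAFi + MEKi and 51.3% and 44.1% with DOX added. The share of all genes called in these arms was 31.3% and 26.1%. In all 4 arms 1202 genes were higher and 1012 lower in 1205Lu. The test of the difference between arms was not made, so these counts give each arm's own calls.

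The 58 G2/M genes had a median log2 difference of 0.28 under DMSO and 0.24 under DMSO + DOX, but -1.68 under BRAFi + MEKi, where 54 were called lower and 0 higher (limma), and -0.34 with DOX added, where 22 were lower and 1 higher. Under DMSO 42 of the 58 had not been called in either direction. FOXM1 differed by 1.46 ± 0.13 under DMSO and by -1.24 under BRAFi + MEKi. S phase genes had medians of -0.18, -0.31, -1.45 and -0.78 in the same order. MHC class II genes were lower in 1205Lu in each arm, with medians of -3.39, -3.67, -3.52 and -1.49 and 11 of 15, 11 of 13, 11 of 14 and 6 of 13 tested members called lower. HLA-DRA, for example, differed by -7.53 ± 0.41 under DMSO and -1.49 under BRAFi + MEKi + DOX. Of all genes, 16.1% were higher and 15.1% lower under BRAFi + MEKi, and 12.9% and 13.1% with DOX added. Of the 28 genes of the undifferentiated, invasive state, 12 were higher and 5 lower under DMSO, 5 and 11 under BRAFi + MEKi, and 2 and 11 with DOX added, with medians of 0.84, -0.63 and -0.79. The 5 higher under BRAFi + MEKi are near the share of all genes. Of the 49 interferon-induced genes, 14 were higher and 15 lower under DMSO, 5 and 29 under BRAFi + MEKi, and 4 and 28 with DOX added. AXL, of the invasive list, had log2 differences of -0.88 and -0.82 in the drug arms. PLAT and IL1B differed by 2.17 and 5.10 under BRAFi + MEKi.

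**Figure D5:**
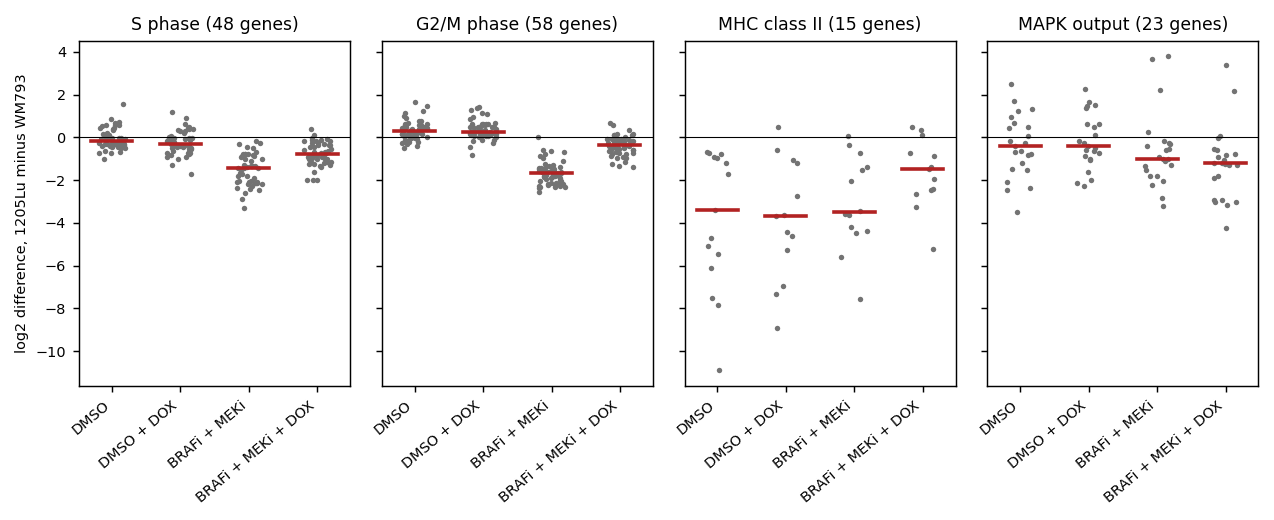
Log2 difference between 1205Lu and WM793 of each tested member of 4 gene lists in the 4 arms, with a red bar at the median. The G2/M genes lie around 0.28 under DMSO and around -1.68 under BRAFi + MEKi, and the MHC class II genes lie below 0 in most cases in every arm.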

How the data were processed

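RNA from 1205LuTR-NR2F1 and WM793TR-NR2F1 cells given DMSO was sequenced in 3 libraries per line. The authors aligned reads to GRCh38 with GENCODE 35 annotation by STAR, counted genes with RSEM and scaled them with DESeq2 over the 36 libraries. The deposited signal values are these normalized estimates, 1 per gene and library, and not counts, so the reads behind each value are not given, and only relative depth can be read from the low values. Their totals differed little between the 6 libraries.

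Of 60656 rows, 255 had no gene name. Values were taken as log2(value + 1), a gene was kept if its mean reached 1 in either line, and lines were compared with limma 3.58.1 in R 4.3.3 (moderated test with a trend on mean level, Benjamini-Hochberg adjustment, threshold 0.05). A standard error (SE) is that of the log2 difference. Each other arm was fitted on its own 6 libraries. The code was tested on simulated data. The p-values measure the spread between cultures of 1 line.

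The libraries, the gene lists and the tests were chosen with earlier results of these data known. The genes named are the NR2F family, the 12 called protein-coding genes furthest apart each way (libraries not overlapping, mean of at least 100), the furthest members of each list each way, and fixed lineage genes. Other genes were added to them, by role, after their values were seen. Y-linked genes and XIST were left out, and some genes that the rule names are not reported here. Gene positions are from GENCODE 44. Pseudocounts, filters, scalings, weights, a block, a fit of 24 libraries and leaving out each library were tried as alternatives.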

Additional observations from a re-analysis of the deposited data

Results flagged for a closer look

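For several named genes every 1205Lu library lay on one side of the WM793 libraries under DMSO and on the other side in another arm. The difference between the arms was not tested. NR2F1, higher in 1205Lu under DMSO, had a log2 difference of -2.41 under DMSO + DOX, where the transgene was induced in both lines.

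Under BRAFi + MEKi, genes higher in 1205Lu under DMSO had a log2 difference below 0: -1.24 for FOXM1, -0.80 for BIRC5 and -0.61 for KIF23 among cell cycle genes, -1.30 for ASNS and -1.85 for CHAC1 among targets of ATF4, -0.94 for MLPH, -1.49 for OAS2 and -0.88 for AXL. SOX8 and PRAME, lower in 1205Lu under DMSO, had log2 differences of 1.44 and 0.35 there.

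Under BRAFi + MEKi + DOX, log2 differences were -0.82 for AXL, -1.98 for OAS2, -0.97 for CD68, -1.19 for DUSP5 and -0.92 for EPHA2, each higher in 1205Lu under DMSO, and 0.42 for PRAME. BRAF, not called under DMSO, had a log2 difference of 0.24 under DMSO + DOX.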

How the results depend on the processing

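The counts of genes higher and lower in 1205Lu stayed within 1.5 times of 3428 and 2919 in every alternative that was run, and none of the 143 named genes that were called changed direction. Leaving out 1 library at a time gave 2563 to 3106 higher and 1976 to 2708 lower genes, and 1931 to 2198 and 1471 to 1799 at a log2 difference of at least 1. Array weights gave 4373 and 4108, and a fit of all 24 libraries of both lines gave 4263 and 3758. Libraries rescaled to 1 total gave 3577 and 2744. With genes at a mean of at least 10, the median of chromosome 7 moved from -0.38 to -0.43 and that of chromosome 8 from 0.70 to 0.67, where fewer genes were tested.

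Replicate numbers did not pair the samples: the deviations of same-numbered libraries correlated at 0.1144, 0.07601 and -0.05664 over 13763 genes, and not every library correlated best with its own number. With the replicate block 3481 genes were higher and 3087 lower, and PRAME was not called (adjusted p = 0.0604). Of 143 named genes called, 6 lost the call in at least 1 alternative: AXL, CIITA, MLPH, NR2F1, PDGFRA and PRAME. DUSP6 and MTAP, not called, gained a call, DUSP6 with array weights and MTAP with array weights or without 1205Lu replicate 2. Of 68 list counts under 1020 alternatives in all, 948 stayed within 1.5 times and 72 did not. The planned count models were not run, since the deposited values are not counts and their low values were not multiples of 1 read. Low values limit the precision in WM793 replicate 1 most.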
